A study of Mus musculus with 42 samples.

Results

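The genes of oxidative phosphorylation were followed through mouse colon cells in which bone morphogenetic protein signalling of the stroma was lost, and through colonic organoids treated with cytokines. Members were chosen by name alone. Taken were symbols that begin with Uqcr, Cox4 to Cox8 or Atp5, or with Nduf, a letter (a, b, c, s or v) and a digit. The genes Sdha, Sdhb, Sdhc and Sdhd and the mt-Nd, mt-Co, mt-Cytb and mt-Atp genes were included as well. Names of pseudogenes were left out, and the Ndufaf assembly factors fall outside the rule. Among 19263 distinct gene names 93 met this rule. A mean of 10 normalized counts or more was asked of each table, and 80 nuclear genes and 10 genes of the mitochondrial genome could be tested in at least 1 comparison. The symbol alone set the complex, so Ndufa4, now known to sit in complex IV, was counted with complex I, and Cox7a2l, known from respiratory supercomplexes, with complex IV.

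Oxidative phosphorylation takes place in the inner mitochondrial membrane. Complex I oxidizes NADH, complex II oxidizes succinate and is shared with the citric acid cycle, complex III passes electrons to cytochrome c, complex IV reduces oxygen, and complex V uses the proton gradient to make ATP. Complex II is built from nuclear genes alone, whereas the other complexes join nuclear subunits with some that the mitochondrial genome encodes. Mature colonocytes rely on this pathway to burn butyrate, and proliferating or inflamed cells often lean on glycolysis.

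RNA sequencing of 42 libraries was deposited in 12 tables. Muc2-mCherry+ goblet cells were sorted from proximal and distal colon of adult mice of both sexes on day 30 after tamoxifen. The mice had 3 genotypes, each carrying Gli1-CreERT2 and Muc2-mCherry, with 2 libraries per group. GWTM2 mice were the controls, GS4M2 mice were also Smad4 fl/fl and GA3M2 mice also Alk3 fl/fl, where Alk3 is the BMP receptor that the tables list as Bmpr1a. Gli1-tdTomato+ stromal cells came from mice with Gli1-CreERT2 and Rosa26-tdTomato, again with 2 libraries per group, called GWTT in controls, GS4T with Smad4 fl/fl and GA3T with Alk3 fl/fl. All mice, controls included, received tamoxifen on consecutive days, which activates the Cre in Gli1+ stromal cells, so the sorted goblet cells are not themselves the deleted cells. Wild type distal colon organoids received IL1 (IL-1α with IL-1β), IL17A (IL-17A) or neither (Control) and were collected after 12 h and 72 h, with 3 libraries per group. Whether a library was 1 mouse or culture or several is not in the labels, so the p-values below measure the spread between libraries, which may be technical. In bulk RNA of this kind, fewer cells of a type and less RNA per cell cannot be told apart.

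Several libraries need naming before the results. Libraries held 14222902 to 23686940 reads on named genes. Both knockouts of a segment, and both cytokines at a time, were compared with the same control reads. Control libraries 2 and 4 of 12 h held the same reads as Control libraries 1 and 4 of 72 h in all 14554 genes they share. In proximal GS4M2 cells the study's supplementary table heads the groups the other way round from the deposited column names. The deposited names are used here, since their GWTM2 reads are those of the GA3M2 table, and with the other heading each sign of that comparison would turn. Smad4 in proximal stromal cells was 1604 and 1673 normalized counts in GWTT and 705 and 835 in GS4T (log2 fold change -1.09, limma adjusted p = 0.0101), and in distal cells it fell by 0.96 (adjusted p = 0.0424). Bmpr1a was 2960.0 and 3220.3 in proximal GWTT and 2233 and 1842 in GA3T, a log2 fold change of -0.61 that did not pass (limma adjusted p = 0.12), and distal values gave -0.69 (adjusted p = 0.101). Gli1, the gene behind the sort, stood at 23.9 in library 2 of proximal GS4T and 34.7 in library 2 of proximal GA3T, against 1481 and 1292 in the first library of each.

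Stretches just before the start of transcription are shown for 3 members that rose in GS4T stromal cells, Atp5g3 and Cox5a in both segments and Sdhd in the distal one, as examples of the members called there. Of 10 nuclear members called in GS4T in either segment, 9 had a window and 4 of these held at least 1 of the motifs named here. Each window is 250 bases long and ends at the base before the start of the gene in RefSeq on GRCm38.p6, at chr2:73911327-73911576 on the minus strand for Atp5g3, chr9:57520982-57521231 on the plus strand for Cox5a and chr9:50603850-50604099 on the minus strand for Sdhd. Capitals mark matches on either strand to 4 motifs chosen after the values were seen, the NRF1-type (GCGCA and GCGC with any 1 base between), the ETS-type (CCGGAAG), the ERR-type (TGACCTTGA) and the YY1-type (AAGATGG followed by CGG).
Atp5g3: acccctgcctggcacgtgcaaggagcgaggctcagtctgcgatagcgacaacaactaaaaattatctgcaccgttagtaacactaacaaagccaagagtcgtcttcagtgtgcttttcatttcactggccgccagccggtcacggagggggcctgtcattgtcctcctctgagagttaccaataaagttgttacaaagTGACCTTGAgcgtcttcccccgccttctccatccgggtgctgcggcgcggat
Cox5a: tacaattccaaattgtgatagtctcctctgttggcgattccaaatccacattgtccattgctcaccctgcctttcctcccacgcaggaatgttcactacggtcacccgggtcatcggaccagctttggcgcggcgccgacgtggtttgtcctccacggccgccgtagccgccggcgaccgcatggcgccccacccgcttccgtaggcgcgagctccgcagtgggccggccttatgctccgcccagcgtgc
Sdhd: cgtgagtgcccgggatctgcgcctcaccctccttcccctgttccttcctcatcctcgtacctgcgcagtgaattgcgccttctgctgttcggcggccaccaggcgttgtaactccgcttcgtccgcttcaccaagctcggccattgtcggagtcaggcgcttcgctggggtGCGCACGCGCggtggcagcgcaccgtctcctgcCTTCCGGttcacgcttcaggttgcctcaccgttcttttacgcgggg
Atp5g3 held the ERR-type letters at base 199 of the window, Sdhd the NRF1-type at base 172 and the ETS-type, read on the other strand, at base 205, and Cox5a none of the 4. Windows were found for 66 of the 80 nuclear members, and 23 of them held at least 1 motif. The NRF1-type letters stood in 13 of 66 member windows (19.7%) against 4.23% of 27025 genes, and the ETS-type in 12 (18.2%) against 7.83%. The ERR-type was found in 1 member window (1.52%, against 0.422%) and the YY1-type in 1, that of Atp5j (against 0.359%). Such matches describe letters and were not tested as binding sites.

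Levels differed far more between cell sources than between conditions. Nuclear members took 1.396 to 2.011% of the reads of a goblet cell library, 1.17 to 1.703% of an organoid library and 0.3917 to 0.5398% of a stromal library. Mitochondrial-genome members took 1.927 to 3.962%, 3.081 to 5.227% and 0.6355 to 1.129% in the same order. The ranges of stromal cells lay below those of the epithelial sources for both kinds of gene. Read as normalized counts per kilobase of transcript, the median nuclear member stood at 2149 in proximal GWTM2 goblet cells, 579.7 in proximal GWTT stromal cells and 1390 in Control organoids at 72 h, each from a table scaled by itself. Atp5b, the catalytic subunit of complex V, was the highest nuclear member in all 3, and mt-Co1, a core subunit of complex IV, was the highest member of all.

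**Figure D1:**
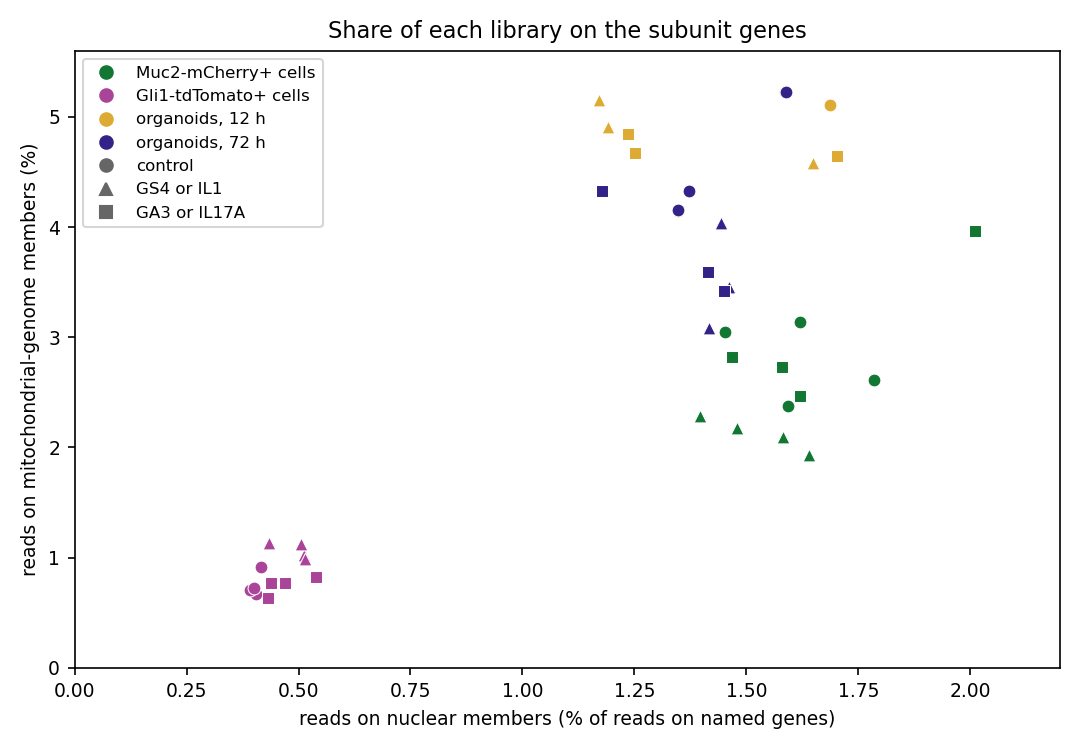
Share of the reads on named genes that fell on nuclear members (x axis, %) and on mitochondrial-genome members (y axis, %), 1 point per library. Stromal libraries lie at the lower left, with 0.3917 to 0.5398% on nuclear members, apart from goblet cells and organoids.

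The lowest nuclear member per kilobase was not the same in goblet and stromal cells. Cox6b2, an isoform best known from testis, was the lowest nuclear member per kilobase in proximal goblet cells, at 66.4 in GWTM2, and stood at 355.6 in proximal GWTT stromal cells. Atp5l was the lowest in stromal cells, at 17.7 per kilobase, but 84.85% of its 50-base words also occur in transcripts of other genes, so its value depends on how shared reads were handled.

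Sequence shared with other genes was also counted for the mitochondrial genome. Only uniquely mapped reads were kept, and copies of mitochondrial sequence stand elsewhere in the nuclear genome. The share of 50-base words also found in transcripts of other genes was 100% for mt-Co2, 99.86% for mt-Co3, 99.53% for mt-Atp6, 98.79% for mt-Nd4l and 97.99% for mt-Nd3. Values of these genes were low or missing, with mt-Co3 at 15.8 per kilobase in proximal GWTM2 cells against a median of 22780 over the 9 mitochondrial members and 172100 for mt-Co1. In mt-Cytb, mt-Nd1 and mt-Nd6 no word was shared, in mt-Nd2 8.19% and in mt-Nd5 7.606% were, while mt-Nd4 (62.23%) and mt-Co1 (51.14%) lie between. mt-Atp6 and mt-Nd4l reached the filter in no table, so complex V is represented by nuclear genes alone. The part of shared sequence in these levels was not tested.

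**Figure D2:**
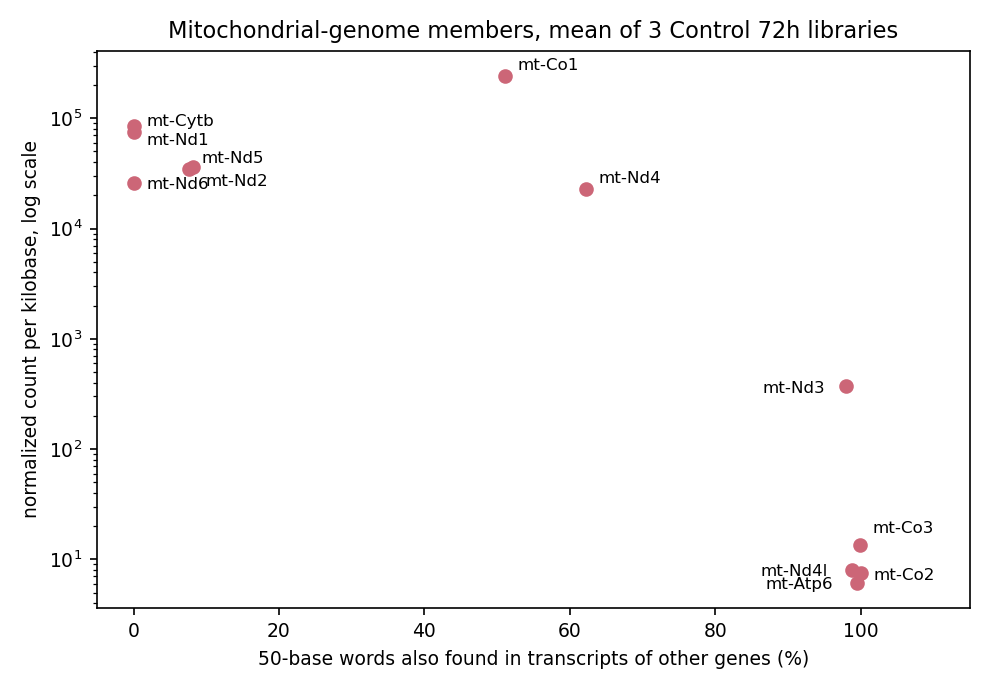
Mitochondrial-genome members in Control organoids at 72 h (mean of 3 libraries) by the share of their 50-base words found in other genes' transcripts (x axis, %) and their normalized count per kilobase (y axis, log scale). Members with 97.99% or more shared words have the lowest counts, and mt-Co1, at 51.14%, the highest.

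In Gli1+ stromal cells that lost Smad4, most nuclear members stood a little higher than in controls, in both segments. In the proximal colon 75 of 80 nuclear members had a log2 fold change above 0, with a median of 0.33 (range -0.57 to 1.40), where 51.7% of all 15319 genes had one above 0. The share of library reads on nuclear members was 0.4042 and 0.4172% in GWTT and 0.5056 and 0.5123% in GS4T. Groups did not overlap in 58 of 80 members that were higher in GS4T, against 34.0% of all genes in that direction, and in 2 that were lower, against 31.4%. The limma test passed 7 members, all higher (8.75%), and 8.32% of all genes passed in that direction (15.6% in either), so the number of single calls was near the background. At an unadjusted p under 0.05, 34 members were higher and 0 lower, against 18.3% and 15.9% of all genes.

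Distally 72 of 80 nuclear members had a fold change above 0, with a median of 0.27 (range -0.98 to 2.14), against 50.5% of all genes. Groups did not overlap in 49 higher members, against 34.4% of genes, and in 1 lower member, against 33.1%. The test passed 6 members, all higher (7.5%), which is below the 12.1% of all 15262 genes called higher (23.2% in either direction), and 24 members passed at an unadjusted p, against 19.8% of genes. Library 1 of distal GS4T lay above the control mean by a median of 0.41 over the members and library 2 by 0.17. No member differed between the segments by the interaction test, where 0.189% of 15310 genes did, and 1 member did at an unadjusted p.

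**Figure D3:**
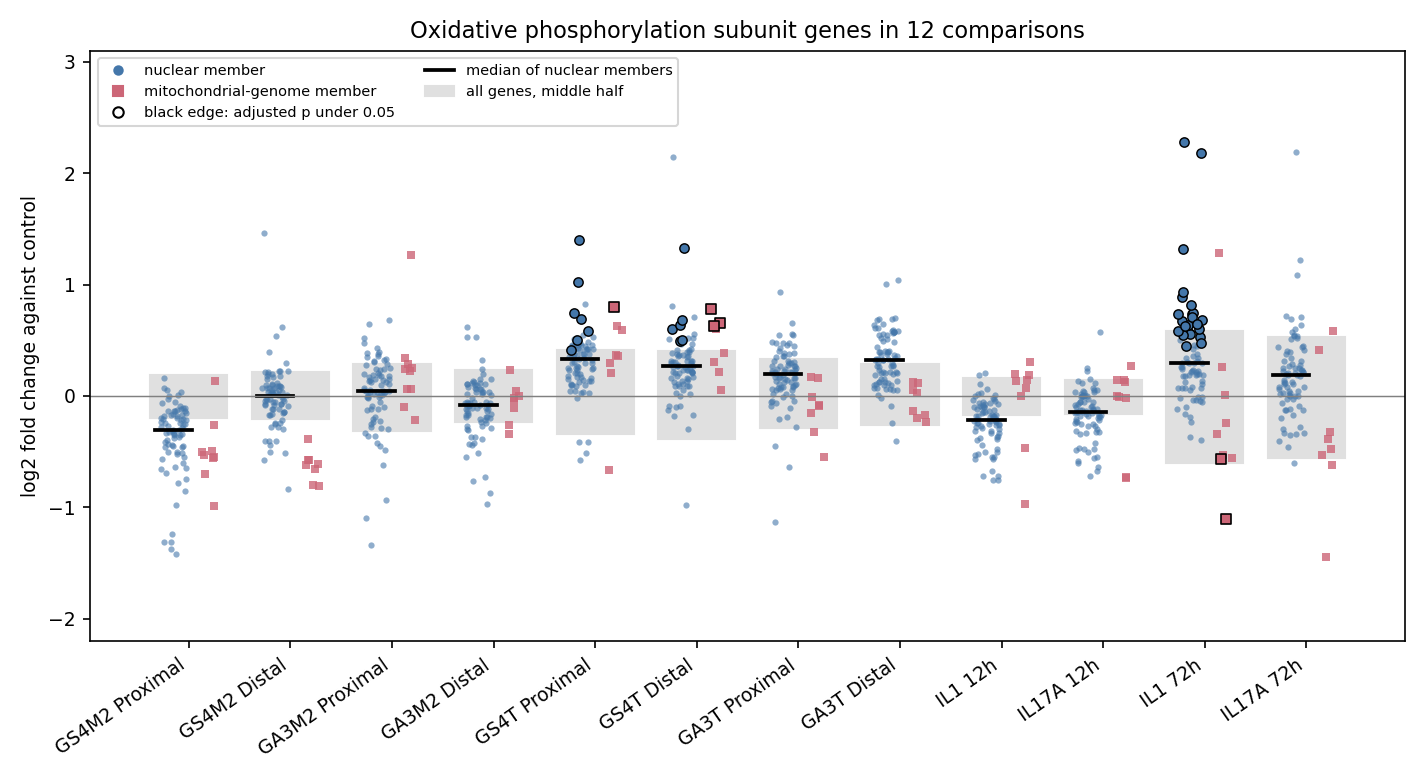
Log2 fold change against control (y axis) of each member in the 12 comparisons (x axis), nuclear and mitochondrial-genome members apart, with the median of nuclear members and the interquartile range of all genes. The nuclear median lies at 0.33 and 0.27 in GS4T, at -0.31 in proximal GS4M2 and at 0.29 in IL1 at 72 h, and the last moves to -0.02 when libraries are rescaled by reads outside the mitochondrial genome.

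Complex I, the largest of the complexes, had a median log2 fold change of 0.34 over 37 nuclear members in proximal GS4T cells, where 3 passed the test. Ndufv1, which carries the NADH site, was 1016 and 1053 normalized counts in GWTT and 1402 and 1357 in GS4T (0.41, SE 0.10, limma adjusted p = 0.0483). Ndufb7 was 408 and 337 against 564 and 636 (0.69, adjusted p = 0.0474) and Ndufa8, like Ndufb7 an accessory subunit, 488 and 465 against 682 and 665 (0.50, adjusted p = 0.0484). All GS4T values of these genes lay above both GWTT values. Distally the median was 0.23 and 1 member passed, the accessory subunit Ndufa10, at 582 and 476 in GWTT and 736 and 868 in GS4T (0.60, adjusted p = 0.0458).

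Ndufa4l2, a paralog of Ndufa4 known as a target of hypoxia-inducible factor 1, did not pass but had the widest distal change of all members. It was 34.2 and 17.4 in distal GWTT and 185 and 66.9 in GS4T (2.14, limma adjusted p = 0.0543), without overlap, and 46.5 and 60.5 against 19.4 and 63.8 in the proximal colon, where the groups overlapped (-0.57, adjusted p = 0.571). Ndufa4 itself gave 0.10 and 0.13 in the proximal and distal colon (adjusted p = 0.713 and 0.619).

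In complex II, Sdhd, a membrane anchor of the enzyme, was 771 and 778 in distal GWTT and 1074 and 1104 in GS4T (0.49, SE 0.11, limma adjusted p = 0.0274). In the proximal colon it was 759 and 804 against 1031 and 1263 (0.55, adjusted p = 0.0557), also without overlap. The catalytic subunits were closer to the controls, with Sdha at 0.10 and -0.09 and Sdhb at 0.13 and 0.21 in the proximal and distal colon, and the other anchor Sdhc at 0.27 and 0.20. None of these passed.

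In complex III the medians were 0.34 and 0.40 over 8 members. Uqcrq, a small accessory subunit, was 488 and 567 in proximal GWTT and 808 and 957 in GS4T (0.74, SE 0.15, limma adjusted p = 0.0336). Distal cells had 502 and 516 in GWTT against 923 and 680 (0.64, adjusted p = 0.0494). Uqcrc1, a core subunit, rose in the distal colon, from 1547 and 1521 to 2023 and 2332 (0.50, adjusted p = 0.0298). GS4T and GWTT libraries did not overlap in any of these.

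Among members that passed, those of complex IV rose furthest in both segments. Cox5a, a subunit on the matrix side of the enzyme, was 172 and 223 in proximal GWTT and 430 and 370 in GS4T (1.02, SE 0.21, limma adjusted p = 0.0343). Distal cells had 165 and 176 against 384 and 483 (1.33, SE 0.19, adjusted p = 0.00824). Each GS4T library was above each control. Of the 50-base words of Cox5a (chr9:57521274-57532426, plus strand, GRCm38), 32.05% also occur in the gene models Gm11633, Gm26631 and Gm49487.

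Cox6b2 was 234 and 182 in proximal GWTT and 629 and 476 in GS4T (1.40, SE 0.22, limma adjusted p = 0.0193), the largest rise among proximal members. Distal values were 316 and 318 against 772 and 400.4, without overlap but with GS4T libraries far apart (0.81, adjusted p = 0.113). Its common paralog Cox6b1 was 714 and 708 against 931 and 1032 in the proximal colon (0.46, adjusted p = 0.0518). Cox7a1, the heart and muscle isoform, went the other way without passing, at -0.52 and -0.98 in the proximal and distal colon (adjusted p = 0.468 and 0.222), from low counts of 13.3 to 40.0. Cox4i1, the common form of the first nuclear subunit, gave 0.42 and 0.47 (adjusted p = 0.0934 and 0.123), while Cox4i2, its oxygen-regulated paralog, was at 4.98 to 32.8 counts.

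In complex V all 17 members had a fold change above 0 in both segments, with medians of 0.33 and 0.35. Atp5g3, 1 of 3 genes for the same c subunit of the rotor, was 1237 and 1324 in proximal GWTT and 1920.0 and 1904 in GS4T (0.58, SE 0.10, limma adjusted p = 0.0223). Distal values were 1163 and 1275 against 2089.5 and 1834 (0.68, SE 0.12, adjusted p = 0.014). The other genes for this protein lay lower and did not pass, with Atp5g1 at 0.43 and 0.42 and Atp5g2 at 0.42 and 0.35 (adjusted p of 0.0538 to 0.147). Cox5a, Uqcrq and Atp5g3 were the nuclear members that passed in both segments, which share no library.

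**Figure D4:**
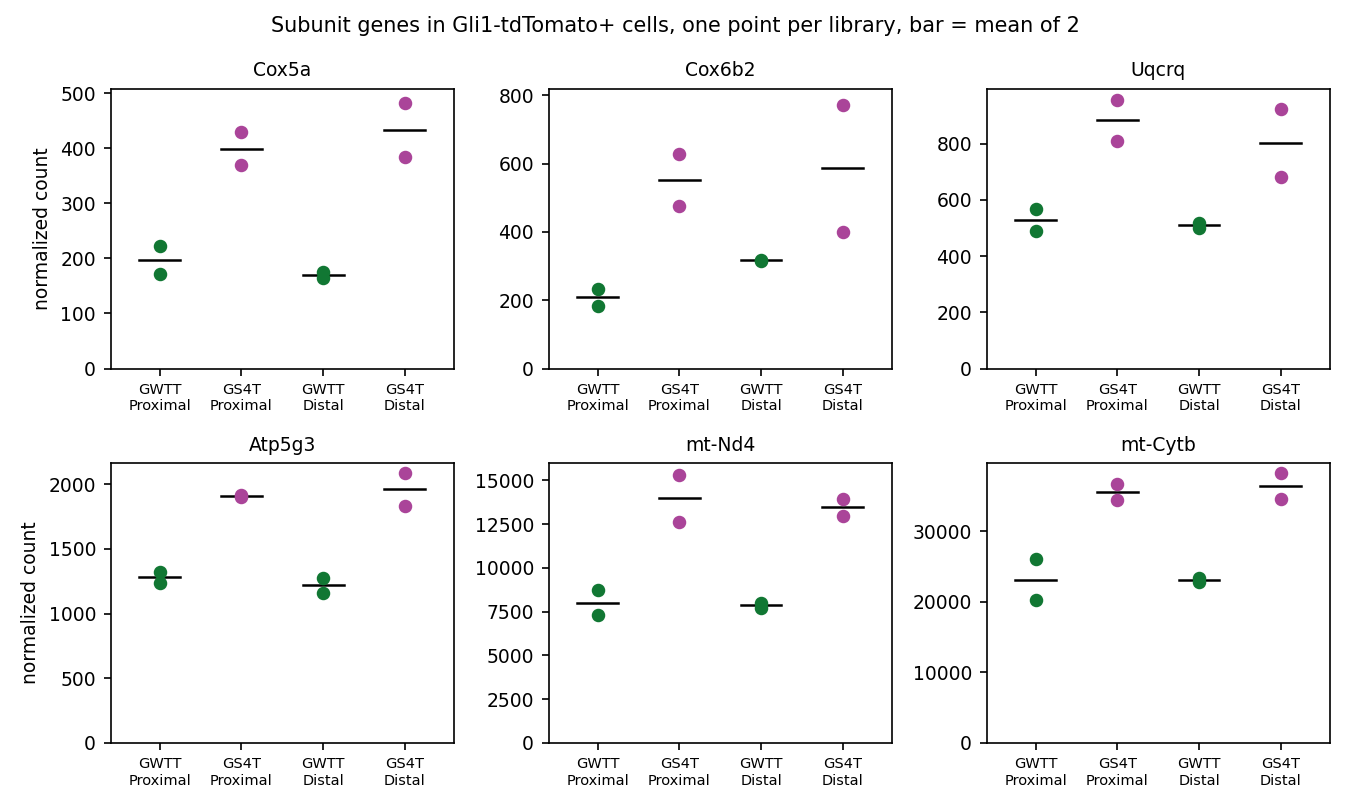
Normalized counts (y axis, from 0) of members in Gli1-tdTomato+ cells, 1 point per library and a bar at the mean of 2, by genotype and segment. Cox5a stands at 165 to 223 in GWTT and at 370 to 483 in GS4T cells.

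Mitochondrial-genome members were higher in GS4T cells as well. Of 8 tested, 7 had a fold change above 0 in the proximal colon (median 0.36) and all 8 in the distal colon (median 0.49). mt-Nd4, a membrane subunit of complex I, rose in both, from 7298 and 8741 to 12611 and 15339.9 in the proximal colon (0.80, limma adjusted p = 0.0367) and from 7989 and 7711 to 12966 and 13955 in the distal colon (0.78, adjusted p = 0.00973). Distally mt-Cytb, the mitochondrial subunit of complex III, rose from 23288 and 22755 to 34549 and 38166 (0.66, adjusted p = 0.0386). There mt-Nd1, another complex I subunit, rose from 13183 and 12535 to 19219 and 20582 (0.63, adjusted p = 0.0254). In the proximal colon these were at 0.63 and 0.59 (adjusted p = 0.0957 and 0.103). Neither gene shares 50-base words with others, unlike mt-Nd4. The remaining members did not pass, with mt-Nd2 at 0.20 and 0.22, mt-Nd5 at 0.30 and 0.31, mt-Nd6 at 0.37 and 0.39, mt-Co1 at 0.36 and 0.60 and mt-Nd3 at -0.67 and 0.06. The proximal controls were apart here, with 0.6656 and 0.9163% of reads on these genes, against 1.027 and 1.123% in GS4T. Of the proximal libraries 1 of 2 in GWTT and 2 of 2 in GS4T had many Xist reads, and with Xist as a term mt-Nd4 stood at 0.67 and was not called (adjusted p = 0.0968).

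Other genes of mitochondrial metabolism were called in small numbers. Over all genes 8.32% were called higher in the proximal colon and 12.1% in the distal colon, and 15.6% and 23.2% in either direction. Of 45 assembly factors of the complexes 0 passed in the proximal colon, and 1 of 44 in the distal colon, Cox10, which makes heme for complex IV (0.85, limma adjusted p = 0.0404). Of 23 genes that maintain and express the mitochondrial genome 0 passed in either segment. Of 16 citric acid cycle genes 3 rose proximally and 2 distally, the latter near the share of all genes, and 0 fell. Among them citrate synthase, Cs, rose by 0.60 and 0.41 (adjusted p = 0.0273 and 0.0388) and malate dehydrogenase, Mdh2, by 0.53 and 0.71 (adjusted p = 0.0419 and 0.0091). Of the electron carriers, cytochrome c (Cycs) rose in the proximal colon, from 469 ± 1.54 to 771 ± 46.4 (SD, n = 2 each, limma adjusted p = 0.0223), and Etfa, which feeds electrons from fatty acid oxidation, decreased by 0.70 and 0.71 (adjusted p = 0.0144 and 0.0159).

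Glycolysis moved further than the subunit genes. Of 19 genes 10 rose and 0 fell in the proximal colon (median 0.79), and 13 rose and 2 fell in the distal colon (median 1.01). Over all genes 8.32% and 12.1% were called higher in these segments. The glucose transporter Slc2a1 rose by 1.60 and 2.32 (limma adjusted p = 0.00778 and 0.00188). Hif1a, the hypoxia-inducible factor subunit that drives glycolytic genes, rose from 1115 ± 10.4 to 2797 ± 22.2 in the proximal colon (1.33, adjusted p = 0.00474) and from 1280 ± 40.8 to 4794 ± 150.2 in the distal colon (1.90, adjusted p = 0.000695; SD, n = 2 each). Myc decreased by 1.55 in the proximal colon (adjusted p = 0.0364). By contrast, 81 cytosolic ribosomal genes had a proximal median of -0.14 with 0 called higher and 1 lower, and 921 other genes with short transcripts a median of -0.03.

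Markers of other cells moved with the genotype in these sorts. The 6 epithelial markers summed to 238 and 8063 normalized counts in proximal GWTT and 19272 and 26957 in GS4T, and to 894 and 2865 against 11297 and 22934 in the distal colon. Between both proximal GWTT libraries the signed difference of the nuclear members had a median of 0.0125. Single members lay on both sides, with quartiles of -0.07 and 0.06 from the control mean in library 1. How these values relate to the epithelial sums was not tested. Sums of 8 macrophage markers were 3098 and 4894 in proximal GWTT and 25571 and 15067 in GS4T, and 11527 and 9769.6 against 33305 and 18527 in the distal colon. The 5 neutrophil markers summed to 35.2 to 105 in all GWTT and to 1081 to 3708 in all GS4T libraries, and the 6 lymphoid markers to 27209 to 77793 and 2779.6 to 14726. The 7 fibroblast markers overlapped in the proximal colon, at 679264 to 763788 in GWTT and 728882 and 945824 in GS4T, and not in the distal colon, at 660251 and 821654 against 874114 and 921178. The 6 smooth muscle markers summed to 5457 and 7709 in proximal GWTT and 15964 and 20001 in GS4T, and overlapped in the distal colon. The part of these other cells in the member values was not tested.

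Single calls leaned on single libraries with only 2 in each group. In the proximal comparison 0 nuclear members passed without either GS4T library, 2 without GWTT library 1 and 5 without GWTT library 2, whereas the median stayed between 0.31 and 0.33. With Xist reads as a term 3 nuclear members passed proximally, among them Cox6b2 (1.58, adjusted p = 0.0156), while Cox5a, Uqcrq and Atp5g3 did not (adjusted p = 0.0631, 0.0664 and 0.0518), and the median was 0.32. In the distal comparison 0 passed without GWTT library 1, 1 without GWTT library 2 and 18 without GS4T library 2, with medians of 0.17 to 0.41.

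Stromal cells that lost Alk3 had most nuclear members above the controls and mitochondrial-genome members near the control level. In distal GA3T cells 76 of 80 nuclear members had a fold change above 0 (median 0.33), where 50.9% of genes did, and 55 were higher and 0 lower without overlap, against 27.5% and 26.8% of genes. In the proximal colon the median was 0.20, with 67 above 0 (51.3% of genes), 40 higher without overlap, against 28.8% of genes, and 6 lower, against 27.5%. No single member passed in limma, with 0.358% of 15346 proximal genes and 0.00% of 15414 distal genes called. At an unadjusted p 11 members were higher in the proximal colon, against 12.3% of genes, and 29 in the distal colon, against 10.5%, with 0 lower in either (9.28% and 8.21% of genes). DESeq2 called 2 and 5 members, and the share of all genes it called is not given here or below.

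Of the members called in GS4T, those with the largest rises lay above the controls here without a call, against the same control reads. Cox5a was 188.5 and 200.5 in distal GWTT and 439 and 350 in GA3T (1.01, limma adjusted p = 0.121), and 181 and 235 against 362 and 291 in the proximal colon (0.65, adjusted p = 0.204). Cox6b2 was 246 and 192 in proximal GWTT and 409 and 424 in GA3T (0.94, adjusted p = 0.104). No GA3T value of these genes overlapped with a control. Ndufa4l2, which had the widest distal change in GS4T, was 49.0 and 63.6 in proximal GWTT and 38.1 and 33.1 in GA3T (-0.64, adjusted p = 0.4), and 39.0 and 19.8 against 36.1 and 23.4 in the distal colon, where the groups overlapped (0.06, adjusted p = 0.965). Atp5g3 was 1301 and 1392 against 1983 and 1784 in the proximal and 1326 and 1451 against 2183 and 1961 in the distal colon (0.48 and 0.58, adjusted p = 0.124 and 0.13). Atp5k, the e subunit of complex V, had the largest distal difference, at 169.6 and 107 against 364 and 214 (1.04, adjusted p = 0.234). Cox7a1 was 32.6 and 42 against 19 and 14.1 in the proximal colon (-1.13, adjusted p = 0.267), and Ndufa12, an accessory subunit of complex I, was 350.3 and 267 against 453 and 449.6 (0.56, adjusted p = 0.196).

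The mitochondrial-genome members of GA3T cells had medians of -0.09 and -0.05, with 2 and 4 of 8 above 0. mt-Nd4 was 7678 and 9191 in proximal GWTT and 9044 and 9791 in GA3T (0.16, limma adjusted p = 0.567) and gave 0.03 in the distal colon. mt-Cytb gave 0.17 and 0.13, mt-Nd1 -0.01 and -0.14, mt-Nd2 -0.09 and -0.24, mt-Nd5 -0.15 and -0.17, mt-Nd6 -0.33 and -0.20, mt-Co1 -0.08 and 0.06 and mt-Nd3 -0.54 and 0.11 in the proximal and distal colon. Beside the values of GS4T, the nuclear members of both knockouts lay above the shared controls while the mitochondrial-genome members did so in GS4T, but the difference between the knockouts was not tested. Complex II gave 0.30 and 0.28 for Sdhd and 0.05 to 0.22 for Sdha, Sdhb and Sdhc. The epithelial sums were 8616 and 13697 in proximal GA3T and 17847 and 8293 in distal GA3T, against 250.2 and 8478, and 1019.6 and 3261, in the controls of these tables. The macrophage markers summed to 3259 and 5146 in proximal GWTT and 14198 and 25196 in GA3T, the neutrophil markers to 37.0 and 110 against 238 and 835, the smooth muscle markers to 8111 and 5738 against 12961 and 19055, the fibroblast markers to 803603 and 714197 against 1012442 and 953581, and the lymphoid markers to 28628 and 49019 against 16445 and 17181. Distally the neutrophil sums were 118 and 66.1 against 344 and 349, the macrophage sums 13150.3 and 11118 against 18869 and 13726, and the lymphoid sums 64776 and 88530.1 against 32284 and 38112, while smooth muscle sums stayed between 18060.5 and 20441 and fibroblast sums overlapped. The part of any of these cells was not tested.

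In goblet cells the nuclear members were lower in proximal GS4M2 mice and near the control level elsewhere. In proximal GS4M2 cells 72 of 78 nuclear members had a fold change below 0, with a median of -0.31 (range -1.42 to 0.16), and 6 one above 0, where 49.7% of genes had one. The groups did not overlap in 61 members that were lower, against 25.2% of 13246 genes, and in 1 that was higher, against 25.0%. Limma called 0 members (smallest adjusted p = 0.0603), where 0.325% of genes were called. At an unadjusted p 39 were lower and 0 higher, against 8.82% and 7.85% of genes. DESeq2 called 23, a count without a share of all genes beside it. The medians of the complexes lay from -0.24 in complex I through -0.27 in II, -0.36 in III and -0.41 in IV to -0.37 in V, where all 17 members were below 0. Of 16 citric acid cycle genes 0 were above 0, with a median of -0.29.

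Atp5l had the lowest value, with 362 and 793 in GWTM2 and 207 and 192 in GS4M2 (-1.42, limma adjusted p = 0.147), but most of its sequence is shared. Atp5k was 1417 and 1003 against 523 and 403 (-1.37, adjusted p = 0.0701) and Ndufb4, an accessory subunit of complex I, 540 and 827 against 297 and 241 (-1.32, adjusted p = 0.0891). GS4M2 libraries were below both controls in each. Cox4i1 was the only member higher without overlap, at 8870.2 and 8580.4 against 9623 and 9894 (0.16, adjusted p = 0.484). In complex II the fold changes were -0.19 for Sdha, -0.35 for Sdhb, -0.44 for Sdhc and -0.06 for Sdhd. The colonocyte markers, 7 genes, moved the same way, with sums of 122318 and 186724 in GWTM2 and 79344 and 109789 in GS4M2, while neutrophil markers were at 18.0 and 6.48 against 97.7 and 227, and their part was not tested.

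In the distal colon the nuclear median of GS4M2 cells was -0.00, with 39 of 78 members above 0 (50.3% of genes). At an unadjusted p 2 were higher and 2 lower, against 5.11% and 5.51% of genes, and limma called 0, as for all 13078 genes (0.00%), while DESeq2 called 1. Cox6b2 was 13 and 21.5 in GWTM2 and 50.3 and 46 in GS4M2 (1.46, limma adjusted p = 0.414), and Cox4i1 5798 and 7016 against 9609 and 9974 (0.62, adjusted p = 0.381). Ndufc2, an accessory subunit of complex I, was lower, at 1018 and 1259 against 816 and 704 (-0.58, adjusted p = 0.404). The groups did not overlap in these 3. The proximal minus distal difference of the fold changes had a median of -0.31 over the members, with 21 lower at an unadjusted p and 0 called by limma, as for all genes (0.00%).

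Mitochondrial-genome members were lower in GS4M2 goblet cells of both segments, without a call. In the distal colon all 8 tested lay below the controls without overlap, against 22.6% of genes in that direction, with a median of -0.61 (range -0.81 to -0.39), 6 lower at an unadjusted p and a smallest limma adjusted p of 0.403. mt-Nd1 was 40157 and 53979 in GWTM2 and 28862 and 32287 in GS4M2 (-0.61, adjusted p = 0.451), and mt-Nd6, which is read from the other DNA strand than the rest, 4197 and 5748 against 2441 and 3249 (-0.80, adjusted p = 0.403). The others were mt-Nd2 at -0.62, mt-Nd3 at -0.81, mt-Nd4 at -0.66, mt-Nd5 at -0.58, mt-Cytb at -0.58 and mt-Co1 at -0.39. Colonocyte markers were lower in the same distal libraries, at 96979 and 134012 in GWTM2 and 69845 and 87593 in GS4M2, and neutrophil markers higher, at 141 and 144 against 257 and 585, and their part was not tested. In the proximal colon the median of 9 was -0.53, with 7 lower without overlap and 5 at an unadjusted p. There mt-Nd6 was 4435 and 7399 against 2660.2 and 3149 (-0.98, adjusted p = 0.146), mt-Nd1 stood at -0.70, mt-Co1 at -0.27, mt-Co3 at 0.14 and the remaining members between -0.55 and -0.49. By Xist reads GWTM2 library 1 of each segment was the only female library among goblet cells, so sex and that library cannot be told apart. Without it the nuclear medians were -0.22 proximally and 0.03 distally.

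In goblet cells of GA3M2 mice neither kind of member kept to 1 side. The nuclear medians were 0.05 proximally and -0.08 distally, with 50 and 29 of 78 above 0 (49.8% and 50.1% of genes), and the mitochondrial medians 0.24 and -0.03. Limma called 0 members, where 0.0899% and 0.00% of genes were called, and DESeq2 called 1 in each. At an unadjusted p 1 member was higher and 4 lower in the proximal colon, against 7.37% and 7.91% of genes, and 2 higher and 6 lower in the distal colon, against 6.29% and 5.46%. Cox4i1 was 5547 and 6772 in distal GWTM2 and 9534 and 9256 in GA3M2 (0.62, limma adjusted p = 0.322), and 9444 and 9071 against 11068 and 19959 in the proximal colon (0.68, adjusted p = 0.355). Atp5k was lower in the proximal colon, at 1509 and 1060 against 458 and 543 (-1.34, adjusted p = 0.138). Cox7a2l was 0.64 and 0.53 in the proximal and distal colon (adjusted p = 0.313 and 0.32), and Ndufb2, a small subunit of complex I, -0.93 and -0.87. These controls are the ones GS4M2 cells were compared with. The 8 goblet cell markers were lower in GA3M2, at 560117 and 621405 in proximal GWTM2 and 247704 and 192136 in GA3M2, and at 608361 and 1102879 against 420235 and 249464 in the distal colon, and their part was not tested.

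In organoids treated for 12 h limma and DESeq2 called none of the members. For IL1 the median of 78 nuclear members was -0.21 with 7 above 0 (50.6% of genes), and for IL17A the median of 79 was -0.15 with 17 above 0 (49.2% of genes). Limma called 0 of them at 0.0542% and 0.0385% of all genes, and DESeq2 called 0. At an unadjusted p 0 passed, where 3.00% of genes were higher and 1.37% lower with IL1 and 3.43% and 1.71% with IL17A. Mitochondrial-genome medians were 0.14 and -0.00. Control libraries 2 and 4 hold the reads of Control libraries 1 and 4 of 72 h, so their time is uncertain. The make-up of the groups also differed. Among Control libraries 1 and 2 had few Xist reads and 4 had many, whereas of each treated group only library 1 had few. Within libraries of few Xist reads the nuclear medians were 0.06 for IL1 and 0.12 for IL17A, and within those of many they were -0.20 and -0.10, and the mitochondrial medians were -0.17 and -0.19 within the former and 0.36 and 0.29 within the latter. The sign of the nuclear medians thus differed between the sets, each with 1 library on 1 side, and that difference was not tested. With Xist as a term in the fit limma called 0 members for either cytokine.

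After 72 h with IL1, 23 of 79 nuclear members rose and 0 fell (29.1%, where 19.6% of 13023 genes were called higher, 18.9% lower and 38.4% in either direction). The nuclear median was 0.29 with 65 members above 0 (50.0% of genes), and 29 were higher without overlap, against 27.0% of all genes, and 3 lower, against 27.8%. The scale of the tables decides how this is read. The share of library reads on nuclear members overlapped, at 1.347 to 1.588% in Control and 1.417 to 1.461% in IL1. An alternative replaced the deposited size factors by each library's total of reads outside the mitochondrial genome. It thus changes the whole scaling, beyond leaving out mitochondrial reads. Mitochondrial-genome members took 4.151 to 5.227% of reads in Control and 3.081 to 4.04% in IL1. Under this rescaling the median of all genes moved to -0.32 and that of nuclear members to -0.02, so the members stayed 0.30 above all genes. It called 5 members higher and 3 lower, while calls over all genes went from 2551 higher and 2455 lower to 1522 and 4021. The directions given here for IL1 at 72 h are relative to the deposited scale. Control libraries 1 and 4 of 72 h hold the reads of Control libraries 2 and 4 of 12 h, and which time is right is unknown. Cytokine and time in culture can therefore not be fully told apart in this comparison.

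Complex I had 8 of 37 nuclear members called. Ndufa6, an accessory subunit with a bound acyl carrier protein, was 1522, 1202 and 1332 in Control and 3603, 2569 and 4131 in IL1 (1.32, SE 0.20, limma adjusted p = 0.00385). It was also called under the rescaling (1.01, adjusted p = 0.00469). Ndufa4l2 was 43.5, 97.2 and 125 against 966, 164 and 320.3 (2.18, SE 0.65, adjusted p = 0.0322), with no overlap but IL1 library 1 far above the other two. The remaining 6 were Ndufs7, a core subunit with an iron-sulfur cluster (0.74, adjusted p = 0.027), Ndufb4 (0.68), Ndufa7 (0.67), Ndufa11 (0.56), Ndufc1 (0.56) and Ndufb9 (0.53). Ndufb7 was 1288, 975 and 871 against 733, 850.0 and 768 (-0.40, adjusted p = 0.115) and Ndufa4 gave -0.23 (adjusted p = 0.202), and under the rescaling both were called lower, at -0.71 and -0.55 (adjusted p = 0.0224 and 0.0199).

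In complex II the iron-sulfur subunit Sdhb rose from 2628, 2246 and 2294 to 4964, 2905 and 4354 (0.74, limma adjusted p = 0.0267), and the anchor Sdhc from 2819.7, 2603 and 2639.8 to 4424, 3330.2 and 4083 (0.54, adjusted p = 0.0225). Both groups were apart in each. Sdha and Sdhd did not pass, at 0.34 and 0.11 (adjusted p = 0.236 and 0.563). In complex III 4 of 8 members passed and all 8 were above 0. Uqcrb, a small subunit also known as a ubiquinone-binding protein, was 1022, 1004 and 998 against 2032, 1344 and 2384 (0.89, adjusted p = 0.0149), and Uqcrfs1, the Rieske iron-sulfur subunit, rose by 0.75, Uqcrq by 0.63 and Uqcrc1 by 0.48 (adjusted p = 0.0277, 0.0373 and 0.0493).

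Complex IV had 7 of 13 nuclear members called and a median of 0.50. Cox7a1 was 88.7, 31.4 and 46.6 in Control and 212, 212 and 352 in IL1 (2.28, SE 0.42, limma adjusted p = 0.00624), and was called under the rescaling too (1.98, adjusted p = 0.00887). Cox8a was 4105, 2886 and 2764 against 4979, 5772 and 7892 (0.93, adjusted p = 0.0151), and Cox4i1 4071, 4180.4 and 4292 against 5964, 5805 and 7123 (0.59, adjusted p = 0.0137). Every IL1 library exceeded every Control library in these genes. Cox7a2l (0.71), Cox7a2 (0.63), Cox6c (0.60) and Cox6b1 (0.45) also rose, whereas Cox6a1 gave 0.50 (adjusted p = 0.196) and Cox6b2, at 8.87 to 17.1 counts, 0.20. Cox4i1, Cox8a, Cox7a2, Cox7a2l and Cox6b1 did not pass under the rescaling, with values of 0.13 to 0.62.

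In complex V 2 of 17 members passed, both of the central stalk. Atp5d, the delta subunit, was 4374, 4668 and 4473 in Control and 8792, 6936 and 8151 in IL1 (0.81, SE 0.14, limma adjusted p = 0.00537), and Atp5e, the epsilon subunit, 1291, 1011 and 1016 against 1663, 1629 and 1885 (0.65, adjusted p = 0.0142). Neither overlapped. The c-subunit genes did not pass, with Atp5g1 at -0.03, Atp5g2 at -0.37 and Atp5g3 at 0.22, and Atp5g2 was called lower under the rescaling (-0.68, adjusted p = 0.0118).

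**Figure D5:**
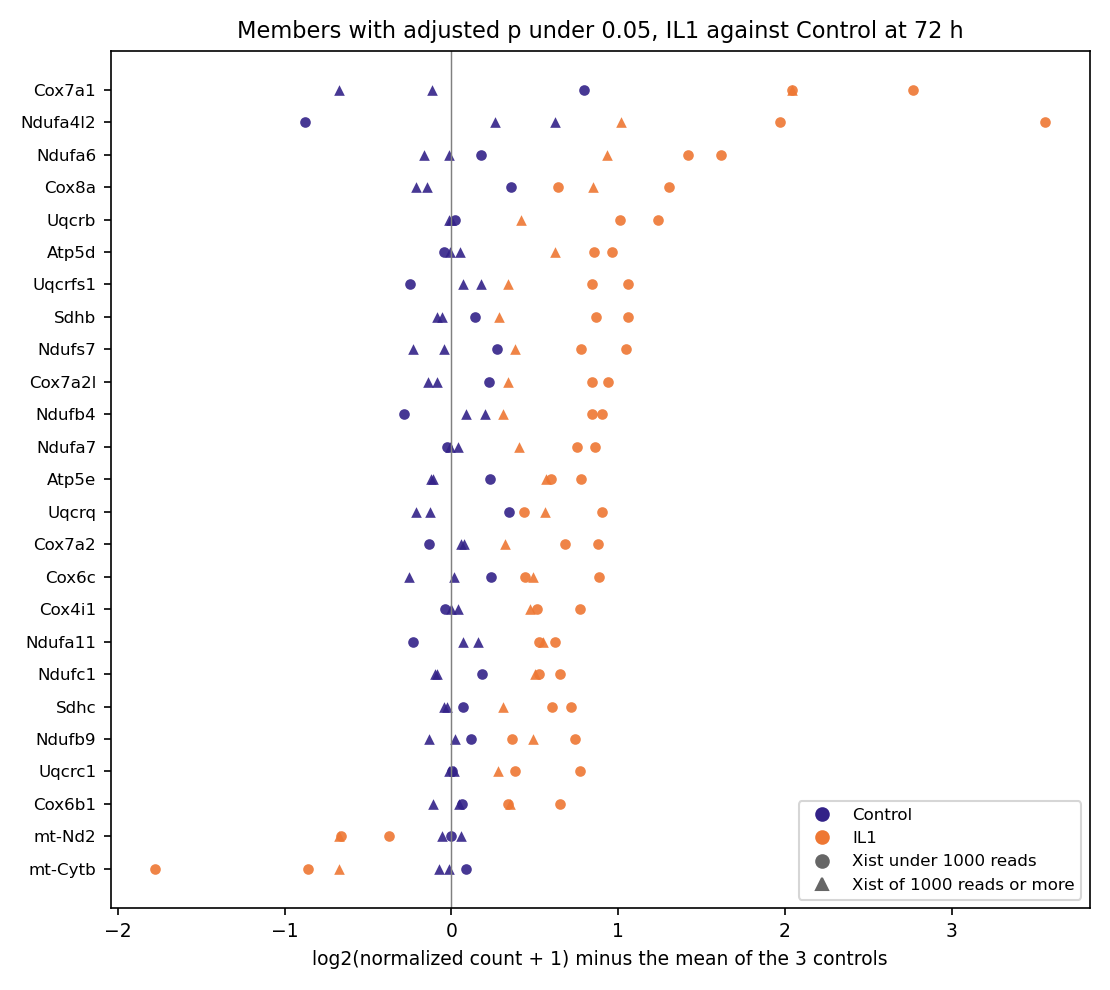
Members called in organoids after 72 h with IL1: log2(normalized count + 1) of each library minus the mean of the 3 Control libraries (x axis), with symbols for Xist reads. The IL1 points lie right of Control for nuclear members and left of it for mt-Cytb and mt-Nd2, on the deposited scale, which moves all genes by -0.32 when rescaled by reads outside the mitochondrial genome.

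On the deposited scale mitochondrial-genome members went the other way from the nuclear ones. Their median was -0.34 over 9, with 2 called lower and 0 higher. Over all genes 18.9% were called lower and 19.6% higher, so the number of calls was near the background. mt-Cytb was 91223, 85138 and 81780.5 in Control and 25086, 53895 and 47419 in IL1 (-1.10, SE 0.31, limma adjusted p = 0.0268). mt-Nd2 was 37250.0, 38774 and 35789.7 against 28753, 23372 and 23572 (-0.57, SE 0.18, adjusted p = 0.0373). The groups were apart in both. mt-Nd1, mt-Nd5, mt-Nd6 and mt-Nd4 gave -0.53, -0.56, -0.34 and -0.25 (adjusted p = 0.0833 to 0.318). Under the rescaling all of them were called lower, 6 members in all with mt-Cytb and mt-Nd2. Calls over all genes leaned lower there too, and the nuclear median was -0.02. mt-Co1 overlapped, at 466898, 333466 and 318334 against 571262, 321146 and 459980.0 (0.26, adjusted p = 0.653), mt-Nd3 was at 1.29 (adjusted p = 0.197) and mt-Co3 at 0.01, from 3.55 to 21.2 counts.

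IL17A for 72 h gave values in the same order of size with no call, against the same Control libraries. The uncertain time of Control libraries 1 and 4 limits this comparison as well. The nuclear median was 0.19 with 57 of 79 members above 0 (49.7% of genes), and 7 were higher and 1 lower at an unadjusted p (19.2% and 19.4% of genes). Limma called 0, where 10.8% of genes were called, and DESeq2 called 7, without a share of all genes beside it. The median was -0.11 under the rescaling, which moved all genes by -0.30. Ndufa4l2 was 43.4, 96.6 and 124 in Control and 888, 147 and 394 in IL17A (2.19, limma adjusted p = 0.0716), and Ndufa6 1519, 1195 and 1329.5 against 3221, 1659 and 4296 (1.08, adjusted p = 0.0716). Library 2 of IL17A was the lowest of its group in both. Without that library 21 nuclear members were called higher and 5 mitochondrial ones lower, and 0 without any other library. The share of all genes called in these fits is not given here. mt-Cytb was 91038, 84651 and 81616 against 18458, 54441 and 30645 (-1.45, adjusted p = 0.0555), mt-Nd2 gave -0.62 (adjusted p = 0.0639), mt-Nd1 -0.53, mt-Nd5 -0.48, mt-Nd4 -0.38, mt-Nd6 -0.33 and mt-Co1 0.41. Ndufb7 was at -0.60 (adjusted p = 0.0771), Cox7a1 at 1.22 (adjusted p = 0.2) and Uqcrb at 0.72.

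The change with time was tested as an interaction. Control libraries 2 and 4 of 12 h hold the reads of Control libraries 1 and 4 of 72 h, and the fit counted them as separate libraries. Its adjusted p therefore cannot be taken at face value. For IL1, 18 of 79 nuclear members had a larger fold change at 72 h than at 12 h and 2 of 9 mitochondrial members a smaller one, where 25.6% of 12953 genes differed, with medians of 0.54 and -0.64. Ndufa6, for example, was 1976, 1606 and 1389 in Control and 1882, 1182 and 1158 in IL1 at 12 h (-0.26), and its difference was 1.58. A further fit pooled the 4 distinct Control libraries into 1 group for both times. The controls cancel in it, so IL1 libraries of 72 h were compared directly with those of 12 h. There 24 of 79 nuclear members were higher and 4 of 8 mitochondrial members lower, with 2607 genes higher and 2725 lower of 12963. That fit cannot show the part of the shared Control reads in the interaction. For IL17A 0 members passed the interaction, where 0.0384% of genes did. At an unadjusted p 7 nuclear members were higher and 3 mitochondrial members lower. In the direct comparison of IL17A libraries 4 nuclear members were higher and 3 mitochondrial members lower, with 1570 genes higher and 1507 lower of 13015.

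Genes that serve the same organelle did not all follow the subunits at 72 h with IL1. Over all genes 19.6% were called higher and 18.9% lower there. The 8 falls among assembly factors and the 3 rises among citric acid cycle genes were near these shares. Of 44 assembly factors 1 rose and 8 fell, among them Ndufaf1 for complex I (-1.19, limma adjusted p = 0.0177) and Sco2 for complex IV (-1.33, adjusted p = 0.0332). Of 23 genes of mitochondrial genome expression 2 rose and 11 fell, from Polg2 of the DNA polymerase (1.40, adjusted p = 0.0117) to Fastkd2, which binds mitochondrial RNA (-2.01, adjusted p = 0.0109). Of 78 mitochondrial ribosomal genes 3 rose and 19 fell, with a median of -0.41. Coq8a and Pdss1, of ubiquinone synthesis, decreased by 1.79 and 1.65 (adjusted p = 0.00304 and 0.00458). Of 12 regulators 5 rose and 2 fell, with the coactivator Ppargc1a at 1.64 (adjusted p = 0.00526) and its relative Pprc1 at -1.57 (adjusted p = 0.0153). Of 16 citric acid cycle genes 3 rose, with Cs at 1.05, and of 17 glycolysis genes 12 rose, with Aldoc at 1.65 and Gpi1 at 1.40, and 0 of either list fell. These counts, too, are on the deposited scale.

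With IL17A at 72 h the calls of these lists were fewer, where 10.8% of all genes were called in either direction. Of 44 assembly factors 3 fell, among them Uqcc3 of complex III (-1.54, limma adjusted p = 0.0455) and Ndufaf2 (-0.94, adjusted p = 0.0491). Tfb2m, a factor that starts mitochondrial transcription, decreased by 0.91 (adjusted p = 0.0478), Coq8a by 1.81 (adjusted p = 0.0349), and 7 mitochondrial ribosomal genes fell. Of 18 glycolysis genes 4 rose, with Hk2 at 1.38 and Aldoc at 1.34 (adjusted p = 0.0318 and 0.0356).

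Markers of mature epithelium moved with the cytokine as well. The 7 colonocyte markers summed to 59176 to 97071 in Control and 148918 to 281951 in IL1 at 72 h, and the 6 epithelial markers to 128324 to 144380 and 228907 to 255082, without overlap. Macrophage and fibroblast markers were at or below 459.4 and 1127. Of the libraries at 72 h, Control 1, IL1 1 and 3 and all of IL17A had few Xist reads. The part of the markers was not tested. With Xist as a term 16 nuclear and 3 mitochondrial members were called for IL1, with a nuclear median of 0.20. The IL1 calls at 72 h leaned on the controls, with 3 nuclear members called without Control library 2, 4 without Control library 4, 26 without Control library 1, 14 without IL1 library 1, 23 without IL1 library 2 and 8 without IL1 library 3. Control libraries 2 and 4 were closer to each other than most pairs, and with both averaged into 1 library 3 nuclear and 0 mitochondrial members were called.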

How the data were processed

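RNA of sorted colon cells and organoids was sequenced after library preparation with a SMARTER mRNA-seq kit. Per the labels and the study's methods, the authors mapped reads to mm10 with STAR 2.5.3, kept unique alignments and normalized gene counts with DESeq2 1.28.1. The program that counted reads, its annotation and its strand setting are not given in the sources used here. The deposited values are a normalized signal per gene, counts divided by 1 size factor per library and table. All values were whole multiples of 1 step within 0.1, so whole reads were recovered, which gave the depth of 14222902 to 23686940 reads per library. At this depth a count of 0 allows up to 3 reads, for counting error only. Both GS4M2 tables hold 4 rows without a gene name, up to 28.2% of the values, which were left out.

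Each table was fitted alone with limma 3.58.1 (R 4.3.3) with a trend, on log2(value + 1), keeping genes whose values averaged 10 or more, and p-values were adjusted by Benjamini-Hochberg over all genes of the table. A gene was called at an adjusted p under 0.05, and all adjusted p printed are from limma. Fold changes are on the log2(value + 1) scale, which understates those of low genes. Differences between segments and times were limma interactions over both tables. For times, the Control reads that both groups hold entered the fit more than once. Groups came from the sample labels. With 2 or 3 libraries per group exact permutation tests cannot pass and were not used. Members and companion lists were chosen with earlier results of these data known. Named with values are all mitochondrial-genome members, the Sdh genes, paralogs of a subunit, per comparison the 3 largest rises and falls among called members or, where fewer passed, the largest differences without overlap, and per companion list the 2 largest called changes, apart from 1 gene that is not reported here. Other called members of IL1 at 72 h and of GS4T are named in addition. As alternatives, the pseudocount was set to 0.1 or 10, the filter was dropped or raised to 50, and the others were upper-quartile rescaling, rescaling by reads outside the mitochondrial genome, edgeR 4.0.16 and DESeq2 1.42.0 on recovered reads, the replicate number as a block, each library left out, the unadjusted p and a fold limit of 1 on the log2 scale. Chosen after seeing the data were a term for sex (Xist of 1000 reads or more) and near-identical libraries averaged. The direct comparison of cytokine libraries between times, with distinct controls pooled, was also chosen then. On simulated data, of genes changed by 2 on the log2 scale in each of the 12 comparisons, between 50% (proximal GA3T, 14909 genes) and 86.7% (proximal GS4M2, 12981 genes) were called, with 0 sign errors. Of genes changed by 1, between 4.12% (IL17A at 72 h) and 62.2% (proximal GS4M2) were called, with 8.42% in proximal GA3T. Changes of under 1, as most members had, were not simulated. Member coordinates and 50-base words come from the gene annotation of GRCm38, promoter windows from RefSeq on GRCm38.p6.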

Additional observations from a re-analysis of the deposited data

Results flagged for a closer look

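Of the 20 members below, the fold change of IL1 against Control differed between 72 h and 12 h in the limma interaction test (adjusted p of 0.00594 to 0.0488). They are 18 of 79 nuclear and 2 of 9 mitochondrial-genome members tested. Over all 12953 genes 25.6% differed in this test, so the number of members is no larger than the background. The difference, 72 h minus 12 h on the log2 scale, was largest for Cox7a1, at 2.79, followed by Ndufa6 at 1.58, Cox8a at 1.30, Ndufs7 at 1.13 and Uqcrb at 1.12. Differences between 0.80 and 1.00 were found for Cox7a2l at 0.97, Cox6c at 0.94, Sdhb at 0.91, Atp5d at 0.89, Ndufb4 at 0.86, Atp5e at 0.83 and Ndufb9 at 0.81. The smaller ones were Uqcrfs1 at 0.77, Cox7a2 at 0.74, Sdhc at 0.71, Ndufc1 at 0.70, Cox6b1 at 0.69 and Cox4i1 at 0.69. Both mitochondrial-genome members had the opposite sign, with mt-Nd2 at -0.76 and mt-Cytb at -1.17. The Control groups of both times share the reads of 2 libraries, which the interaction fit counted as separate libraries. Its adjusted p therefore cannot be taken at face value. All 20 members also passed in limma when IL1 libraries of 72 h and 12 h were compared directly. In that fit the pooled Control libraries cancel, so it cannot show the part of the shared reads. The groups of 12 h and 72 h differ in the number of libraries with many Xist reads, and the part of sex in the differences was not tested.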

How the results depend on the processing

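With 2 or 3 libraries per group the sign of the nuclear median was steadier than any count of called members. It was kept under every alternative run in GS4T and GA3T of both segments, proximal GS4M2 and IL1 at 12 h (there not within libraries of few Xist reads alone), and was lost in at least 1 alternative elsewhere. No value that had been called reversed. For DESeq2, the sex term, the block and the fits without a library, shares of all genes called are not given. Their counts show only how far calls depend on the setting. Counts of called nuclear members, 0 by limma where no number is given, became under DESeq2 23 (proximal GS4M2), 1 (distal GS4M2), 1 and 1 (GA3M2), 14 of GS4T proximal against 7, 2 and 5 (GA3T proximal and distal) and 7 (IL17A at 72 h). Under the unadjusted p they became 39 and 4 (GS4M2), 5 and 8 (GA3M2), 34 and 24 (GS4T), 11 and 29 (GA3T) and 8 (IL17A at 72 h), and with the sex term 5 and 6 (GS4M2), 5 (distal GA3M2) and 3 (proximal GS4T). In proximal GS4T pseudocount 0.1, upper-quartile rescaling and edgeR left 4 each and a fold limit 2, and the fold limit left 1 of 6 in distal GS4T and 3 of 23 in IL1 at 72 h. There rescaling by reads outside the mitochondrial genome left 8 and averaging near-identical libraries 3. Mitochondrial counts became 5, 3, 5, 4 and 3 under DESeq2 (proximal GS4M2, proximal GS4T, distal GS4T, IL1 and IL17A at 72 h), 1, 2 and 0 with the sex term (proximal and distal GS4M2, proximal GS4T), and for IL1 at 72 h, against 2, 6 under the rescaling, 4 in edgeR and 0 after averaging. Nuclear medians moved by more than the spread of libraries in proximal GS4T (0.33), to 0.34 with a mean of at least 50 and with the rescaling, 0.30 with the upper quartile and edgeR, and 0.32 with DESeq2 and the sex term. The sex term gave -0.22 and 0.0298 in proximal and distal GS4M2 and 0.21 in distal GA3T, and the rescaling 0.0495 in distal GS4M2, -0.0195 in IL1 and -0.11 in IL17A at 72 h. The cause of these shifts was not tested.

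The replicate block gave 16 nuclear members in proximal GS4M2, 3 in proximal GA3M2, 4 in proximal GS4T, 3 in IL17A at 12 h and 2 in IL1 at 72 h, and 1 and 0 mitochondrial members in proximal GS4M2 and in IL1 at 72 h. The labels do not tie a number to an animal or day, and 2 numbers at most were shared in each comparison. Deviations of same-numbered libraries correlated at -0.06 to 0.30 in sorted cells, at 0.619 to 0.637 at 12 h, and at -0.186 to 0.2 at 72 h.

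With each library left out in turn, called nuclear members ranged from 0 to 5 in proximal GS4M2 and distal GA3M2, 0 to 6 in distal GS4M2 and proximal GA3M2, 0 to 5 in proximal and 0 to 18 in distal GS4T, 0 to 0 in proximal and 0 to 1 in distal GA3T, 0 to 0 at 12 h, 3 to 26 in IL1 and 0 to 21 in IL17A at 72 h. Mitochondrial members ranged from 0 to 1 and 0 to 2 in GS4M2, 0 to 2 in both GS4T segments, 0 to 4 in IL1 and 0 to 5 in IL17A at 72 h, and were 0 elsewhere. Nuclear medians ranged from -0.37 to -0.22 and -0.0568 to 0.0298 in proximal and distal GS4M2, -0.16 to 0.31 and -0.21 to 0.0499 in GA3M2, 0.31 to 0.33 and 0.17 to 0.41 in GS4T, 0.0906 to 0.29 and 0.21 to 0.44 in GA3T, -0.41 to -0.11 and 0.20 to 0.43 in IL1 at 12 h and 72 h, and -0.34 to -0.04 and 0.02 to 0.40 in IL17A. Of named members' values 4470 kept their side of the threshold or stayed within the spread, 107 lost a call, 112 gained one and 257 without a call moved.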
